A study of Homo sapiens with 2 samples.

Results

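In TL-Om1 cells, peaks of TP73 ChIP-seq were counted at 5 genes: NDRG1, ST3GAL1, PLEC, CCDC88C and TRIM8. A peak belonged to a gene when its summit lay inside the gene's hg19 span or up to 20 kb beyond either end, which gave 58 of the 18908 peaks in the authors' list. The genes were chosen by the number of summits in their stretch of the genome, a value of this same list, so the number and closeness of their peaks are descriptions of that choice and carry no test. TL-Om1 is an established line derived from adult T-cell leukaemia, a T-cell cancer caused by the retrovirus HTLV-1. The series holds 1 ChIP library, made with an antibody against TP73, and 1 input library of whole cell extract with no antibody. Both libraries came from cells in RPMI-1640 with 10% serum and penicillin and streptomycin, fixed for 10 min in formaldehyde, with no other treatment named, and single-end reads of 50 bases were sequenced. With 1 ChIP library no value has a replicate error, and nothing below is a test between conditions.

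TP73 is a transcription factor of the p53 family. Like p53, it binds DNA as a tetramer, at response elements built from paired copies of a short decamer, and can activate genes of growth arrest and cell death. Its gene also gives rise to shortened forms without the N-terminal activation domain, which can oppose p53 family members at the same elements. The 5 genes belong to no common pathway. TRIM8 is a ubiquitin ligase that stabilises p53, and NDRG1 is a stress-response gene induced by hypoxia and by p53. PLEC encodes plectin, a large linker of intermediate filaments to other parts of the cell skeleton. CCDC88C encodes DAPLE, a Dishevelled-binding protein of Wnt signalling, and ST3GAL1 encodes a sialyltransferase that caps O-linked sugars on surface proteins, T-cell glycoproteins among them.

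For each peak the authors' list gives a fold, which is the ChIP pileup plus 1 over the control background plus 1 at the summit, and a −log10 q-value. The whole list had a median fold of 11.3 with quartiles of 8.31 and 18.7. Solving fold and p-value together gave the ChIP reads over each summit, with a median of 43 reads and a range of 18 to 284. The labels describe the background as whole cell extract, but each of the 18908 peak names includes "IgG", so "control" means here whichever library the caller was given.

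The 5 loci differed in how thickly they were covered. TRIM8 had 10 summits in a window of 55 kb, or 18.2 per 100 kb (95% exact Poisson interval 8.72 to 33.4, counting error only). PLEC had 17 summits in 102 kb, or 16.7 per 100 kb (9.71 to 26.7). CCDC88C had 16 in 188 kb, or 8.51 per 100 kb (4.86 to 13.8). NDRG1 had 6 in 101 kb, or 5.94 per 100 kb (2.18 to 12.9). ST3GAL1 had 9 in 158 kb, or 5.70 per 100 kb (2.60 to 10.8). In this order the interval of each locus overlaps that of the next. The intervals treat summits as independent and sit on counts chosen for being high, so their overlap is no comparison of the loci. The density over the span of the list on the autosomes and chromosome X was 0.641 summits per 100 kb.

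How often such counts were reached in the list differed by gene. The windows were taken over the whole list, so each share and each number of places includes the gene's own locus. Because the genes were chosen for their number of summits, the shares below describe that choice and carry no test. Among all windows of 102 kb, with the start moved in steps of 1 kb, 0.0031% held at least the 17 summits of PLEC, at 2 separate places. For TRIM8 the share of 55 kb windows with at least 10 summits was 0.00953%, at 13 places. For CCDC88C the share of 188 kb windows with at least 16 was 0.043%, at 15 places. The counts of ST3GAL1 and NDRG1 were more common. At least 9 summits lay in 0.606% of 158 kb windows, at 215 places, and at least 6 lay in 1.06% of 101 kb windows, at 470 places. By this measure PLEC, TRIM8 and CCDC88C were among the most crowded stretches of the list, while the counts of ST3GAL1 and NDRG1 were reached at many more places.

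**Figure D1:**
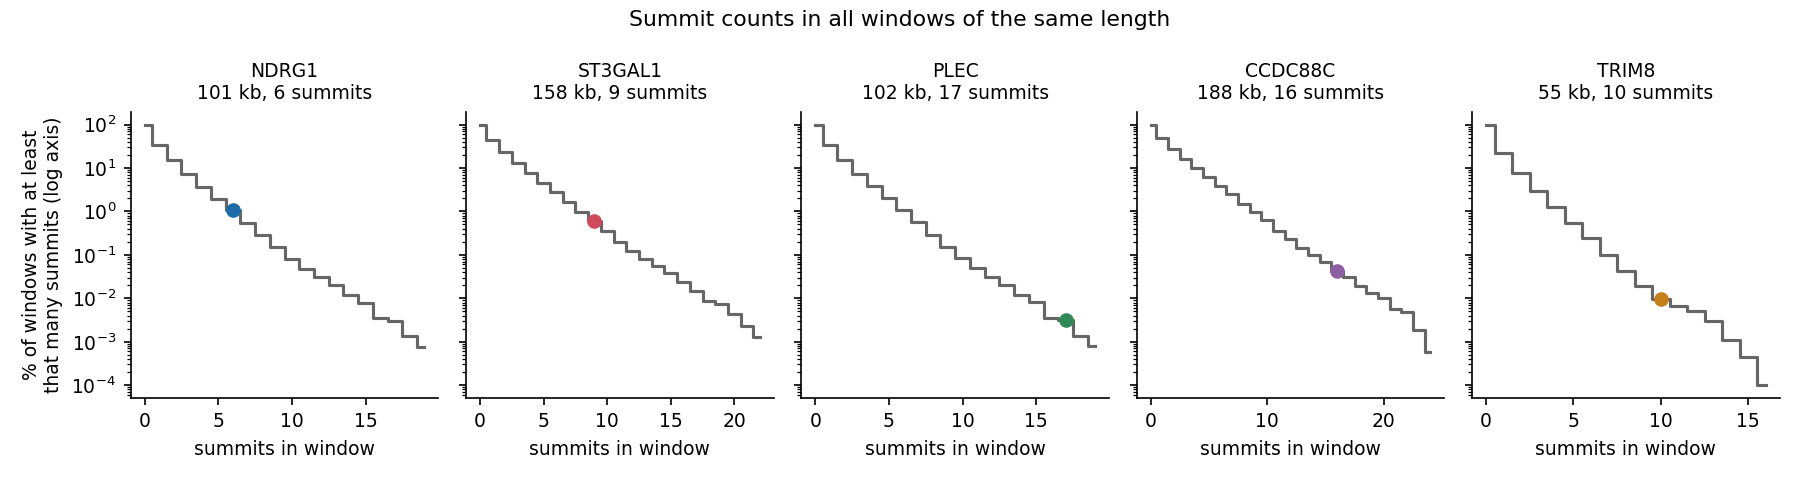
Share of all windows of the same length (percent, log axis) that held at least a given number of summits, one panel per gene. The coloured point is the gene's own count. The point of PLEC lies at 0.0031% and that of NDRG1 at 1.06%.

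The genes also differed in where their summits lay. Of the 58 summits, 43 lay inside a gene span, 6 upstream of the 5′ end and 9 beyond the 3′ end. All 9 summits of ST3GAL1 and all 16 of CCDC88C were inside the rounded span. PLEC had 13 inside and 4 upstream, and TRIM8 had 4 inside, 2 upstream and 4 downstream. NDRG1 had only 1 inside and 5 beyond its 3′ end. Every one of the 5 genes had a summit within 1 kb of its 5′ end, and TRIM8 had 2. Gene spans were given to the nearest kb, so these distances and the split into inside and upstream carry that rounding. For a summit within 1 kb of the 5′ end, the side of the true gene start on which it lies is not settled. Of the span of the whole list, 1.20% lies within 1 kb of a summit, and of the 5 windows 8.81% (NDRG1) to 24.3% (PLEC) does. How many other genes have a summit so close to the 5′ end was not analysed here.

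**Figure D2:**
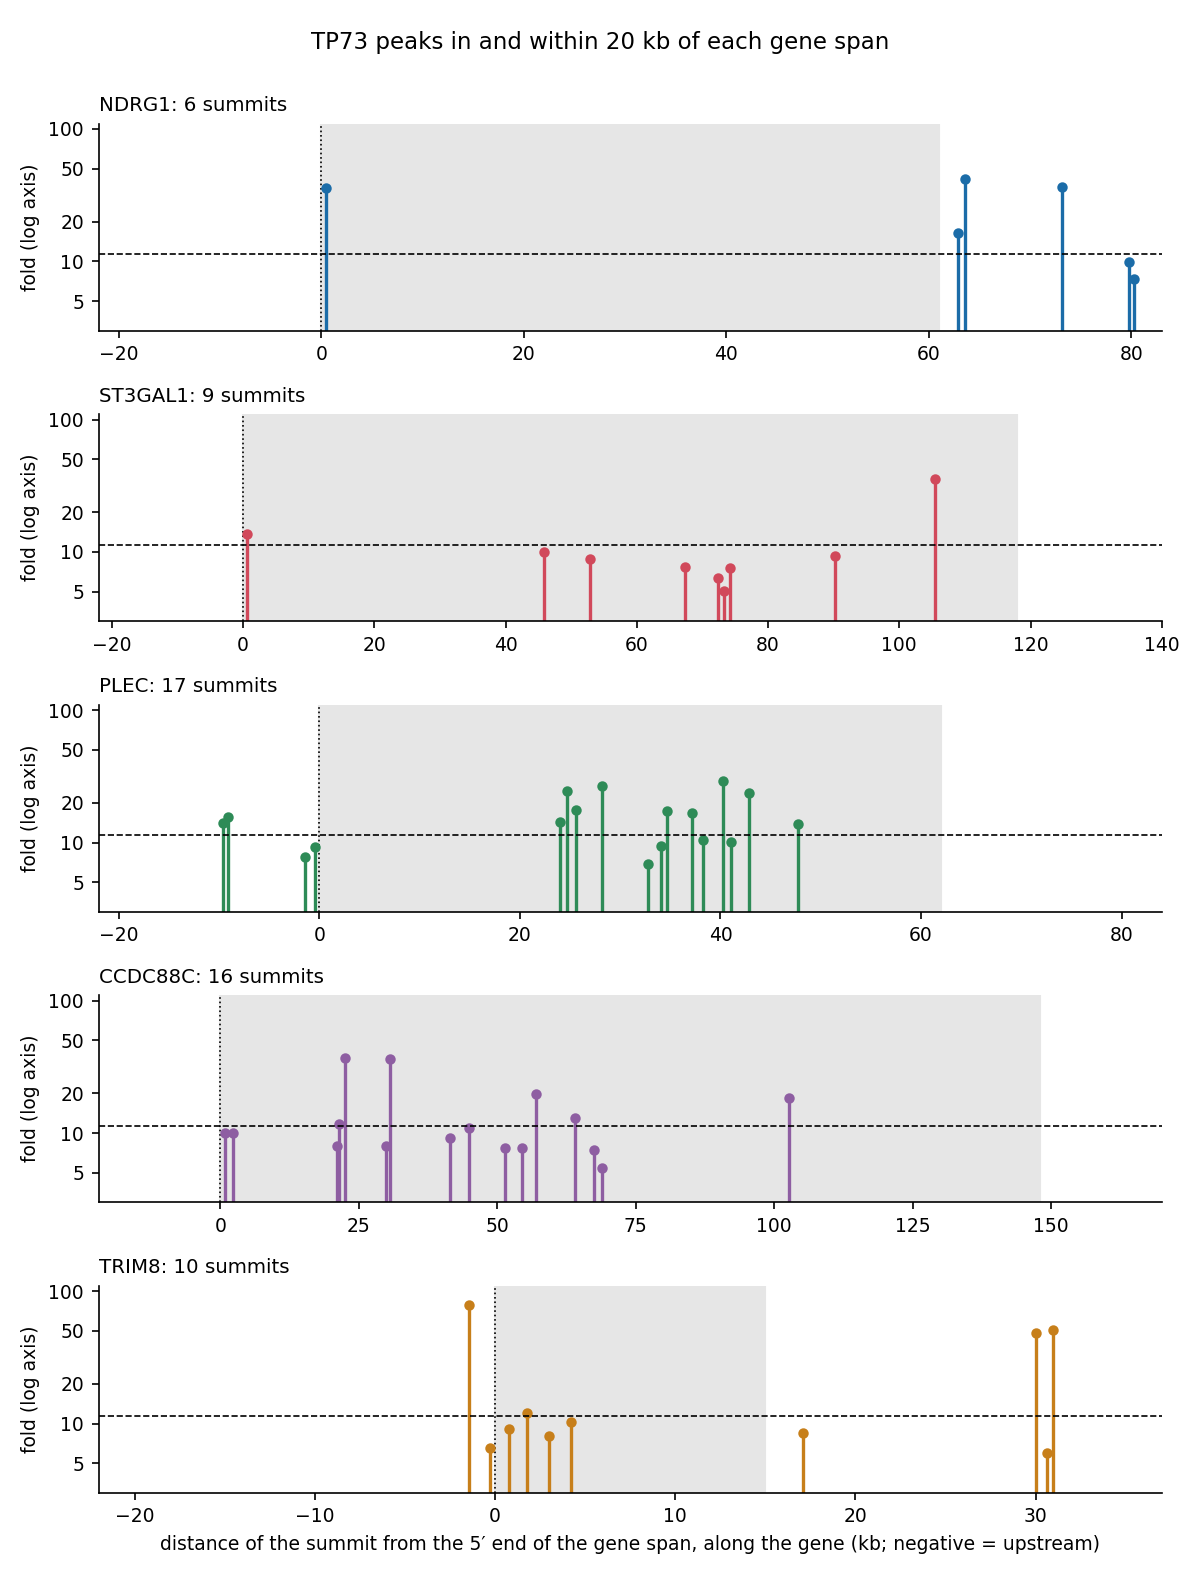
Fold of each peak (log axis) against the distance of its summit from the 5′ end of the gene span, in kb along the direction of transcription, with negative values upstream. Grey marks the gene span, the dotted line its 5′ end and the dashed line the median fold of all peaks, 11.3. NDRG1 shows 1 summit at the 5′ end and 5 beyond the 3′ end, while all summits of CCDC88C and ST3GAL1 lie in grey.

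The strongest peak of the 5 loci stood at TRIM8, on the forward strand of chromosome 10 (hg19 span 104.404 to 104.419 Mb). It lay at 104401824 to 104402962, with its summit 1.45 kb upstream of the 5′ end, a fold of 78.2 and 272 ChIP reads. By fold and by q-value it ranked 15th in the list, and at 1139 bp it was the widest of the 58. The 5′ end itself was weaker. A peak at 104403631 to 104403807, 301 bp upstream of the 5′ end, had a fold of 6.59 from 22 reads. One 785 bp inside the rounded span had a fold of 9.17 from 31 reads. The other summits inside the gene, 1.76, 3.01 and 4.20 kb from the 5′ end, had folds of 11.95, 8.01 and 10.3. These 6 summits, from the strong upstream peak to the fourth inside the gene, fell within 5.65 kb. In GRCh38.p14, RefSeq lists TRIM8-DT, a long non-coding RNA, next to TRIM8 on the upstream side.

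Strong enrichment also lay beyond the 3′ end of TRIM8, on the side where ARL3 is the next protein-coding gene in GRCh38.p14. A peak at 104433826 to 104434254, 15.0 kb past the gene, had a fold of 48.4 from 168 reads. A peak at 104434765 to 104435219, 16.0 kb past it, had a fold of 51.0 from 208 reads over 3 control reads in 142 bp. Between them a narrow peak of 145 bp had a fold of 6.01 from 20 reads. It is the weakest by reads of all 58, and its summit was 372 bp from that of the stronger neighbour, the closest pair at any of the 5 genes. The tenth summit, 2.11 kb past the 3′ end, had a fold of 8.46 from 51 reads, with 5 control reads over the same 142 bp. The TRIM8 window therefore combined 3 peaks with folds of 48.4 to 78.2 and 7 peaks with folds of 6.01 to 11.95, and none in between. The hg19 span of ARL3 was not at hand, so whether any of the peaks past the 3′ end lie inside ARL3 was not checked. Whether they belong to TRIM8 or to ARL3 cannot be read from position alone.

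The window of NDRG1, on the reverse strand of chromosome 8 (hg19 span 134.249 to 134.310 Mb), had few but strong peaks. The peak at the 5′ end of NDRG1, at 134309363 to 134309955, had its summit 416 bp inside the rounded span. It had a fold of 36.1, 125 ChIP reads and a width of 593 bp. No other summit lay in the 61 kb of the gene. The next summit in the 3′ direction was 62.5 kb away and 1.91 kb past the 3′ end, with a fold of 16.3 from 66 reads. Its neighbour 655 bp further on, at 134246261 to 134246635, was the strongest of the locus, with a fold of 41.8 from 152 reads. A peak at 134236605 to 134236959, 12.2 kb past the gene, had a fold of 36.3 from 148 reads. The last summits, 18.8 and 19.2 kb past the gene and 475 bp apart, had folds of 9.95 and 7.41. In GRCh38.p14 the next protein-coding gene on this side is CCN4, which encodes a secreted matrix-associated protein of the CCN family. The hg19 span of CCN4 was not at hand, so whether any of the 5 peaks past the 3′ end lie inside CCN4 was not checked. Whether they belong to NDRG1 or to CCN4 cannot be read from position alone. The locus had a median fold of 26.2, and 3 of its 6 peaks had a fold of at least 20, against 23.0% of all peaks.

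ST3GAL1 lies on the same arm, 157 kb from NDRG1 and also on the reverse strand (hg19 span 134.467 to 134.585 Mb). Only 2 summits lay between the spans of the 2 genes. ST3GAL1 was the weakest of the 5 loci, with a median fold of 8.88 and 8 of its 9 peaks between 5.04 and 13.8. The exception was the summit farthest from the 5′ end, 105.5 kb into the gene. This peak, at 134479379 to 134479691, had a fold of 35.5 from 123 reads. The peak at the 5′ end, at 134584211 to 134584511, was second, with a fold of 13.8 from 47 reads. Its summit lay 597 bp inside the rounded span. No summit was called for the next 45.3 kb. Further in, 3 summits within 1.81 kb had folds of 7.57, 5.04 and 6.35 from 30, 30 and 25 reads, over 3, 5 and 3 control reads in 142 bp. The first 2 of them, 888 bp apart, were the closest pair of the gene. The other 4 summits had folds of 7.74 to 10.0, from 26 to 40 reads.

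PLEC, on the reverse strand of chromosome 8 (hg19 span 144.989 to 145.051 Mb), had the most peaks of the 5 genes. Its folds ran from 6.88 to 29.4 with a median of 14.3, and none reached 50. The gene is transcribed from several alternative first exons, which give plectin isoforms with different N-terminal ends. The 13 summits inside the gene formed one stretch of 23.7 kb, from 145003294 to 145026991, or 24.0 to 47.7 kb from the 5′ end. In successive stretches of 15.5 kb from the 5′ end, the gene held 0, 4, 8 and 1 summits. The strongest peak, at 145010579 to 145010947, had a fold of 29.4 from 106 reads. Folds of 23.8, 26.6 and 24.6 were found 42.9, 28.2 and 24.7 kb from the 5′ end, from 82, 96 and 85 reads. The closest pair, with summits 523 bp apart at 145016379 and 145016902, had folds of 17.3 and 9.46.

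The 5′ end of PLEC was among its weaker sites. The peak nearest to it, at 145051190 to 145051473, had a summit 388 bp upstream of the rounded span and a fold of 9.17 from 31 reads. A peak with a summit 1.46 kb upstream had a fold of 7.74 from 26 reads. Further out, a pair of summits 9.07 and 9.61 kb upstream and 544 bp apart had folds of 15.5 and 14.0. In GRCh38.p14 the next protein-coding gene on this side is PARP10, which encodes a mono-ADP-ribosyltransferase. The hg19 span of PARP10 was not at hand, so whether any of these 4 peaks lie inside PARP10 was not checked. Whether they belong to PLEC or to its neighbour cannot be read from position alone.

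CCDC88C, on the reverse strand of chromosome 14 (hg19 span 91.737 to 91.885 Mb), had all of its peaks inside the rounded span. Most of them lay toward the 5′ end. In successive stretches of 37 kb from the 5′ end the gene held 7, 8, 1 and 0 summits. The strongest peak, at 91862367 to 91862820 and 22.4 kb into the gene, had a fold of 37.1 from 189 reads, with 4 control reads in 142 bp at the same summit. A peak of 790 bp at 91853892 to 91854681, 30.6 kb into the gene, had a fold of 36.4 from 126 reads. Each had weaker neighbours close by. Summits 1032 bp and 1.43 kb from the first had folds of 11.7 and 8.02, and these were the closest pair of the gene, 401 bp apart. A summit 644 bp from the second also had a fold of 8.02. The other 11 summits had folds of 5.47 to 19.8. Among them, the lone summit of the third stretch, 102.6 kb into the gene, had a fold of 18.5 from 75 reads.

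The 5′ end of CCDC88C carried a peak at 91884104 to 91884606, 503 bp wide, with a fold of 10.0 from 34 reads and a summit 764 bp inside the rounded span. A second peak 2.27 kb inside had the same 34 reads and the same fold. Of the 5 genes, RefSeq promoter sequence was at hand for CCDC88C. It is shown with that of CCDC88C-DT, a long non-coding RNA that starts nearby in the opposite direction, because a peak lies near the 5′ end of CCDC88C. Each window runs from 250 bases before to 50 bases after the gene start, 5′ to 3′ on the strand of the gene. CCDC88C is at chr14:91417771-91418070 on the reverse strand and CCDC88C-DT at chr14:91417996-91418295 on the forward strand of GRCh38.p14. These positions are not on the build of the peaks, so the summit is not placed on them. Capitals mark GGGCGG or its reverse complement, the GC box.
CCDC88C: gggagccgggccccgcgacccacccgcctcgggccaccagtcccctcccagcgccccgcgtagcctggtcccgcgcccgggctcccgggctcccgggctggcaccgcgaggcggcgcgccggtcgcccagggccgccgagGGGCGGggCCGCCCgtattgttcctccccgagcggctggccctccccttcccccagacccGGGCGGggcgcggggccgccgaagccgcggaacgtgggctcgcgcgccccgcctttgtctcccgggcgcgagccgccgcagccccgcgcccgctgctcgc
CCDC88C-DT: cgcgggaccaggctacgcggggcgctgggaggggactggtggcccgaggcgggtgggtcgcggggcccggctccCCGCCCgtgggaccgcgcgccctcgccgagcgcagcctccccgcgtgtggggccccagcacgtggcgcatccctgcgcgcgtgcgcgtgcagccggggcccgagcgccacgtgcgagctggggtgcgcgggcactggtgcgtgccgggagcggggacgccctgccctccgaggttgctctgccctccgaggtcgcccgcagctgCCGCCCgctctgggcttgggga

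The windows share 75 bases, read from opposite strands. The CCDC88C window is 83.3% G and C and holds 49 CpG, against medians of 58.7% and 14 over 35116 promoter windows of the same length. That of CCDC88C-DT is 80.3% G and C and holds 44 CpG. GGGCGG was found 3 times in the first window, 2 of them on the strand of the gene, and 2 times in the second, and 45.0% of all windows hold it. On both strands neither window holds CATG, which is a core of the p53-family decamer and is found in 54.9% of windows. The full decamer of the p53 family, found in 6.63% of windows, was also without a match in either. CCAAT (34.6% of windows), TATAAA (11.5%), TGTGGT (13.1%) and TGANTCA (7.71%) had none either. No GGGCGG match overlaps another in these windows. A match, or the lack of one, describes these letters only.

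In strength the 58 peaks together resembled the list they came from. Their median fold was 10.4 with quartiles of 8.02 and 18.3, and the median of ChIP reads was 44 against 43 over all peaks. A fold of at least 20 was found at 13 of 58 peaks (22.4%) against 23.0% of all peaks. A fold of at least 10 was found at 34 (58.6%) against 59.8%, and a fold of at least 50 at 2, both at TRIM8, against 3.54% of all peaks. The −log10 q-value reached 100 at 11 of 58 (19.0%) against 16.5%. These shares are near those of the list. Median folds per gene were 26.2 for NDRG1, 14.3 for PLEC, 10.0 for CCDC88C, 9.73 for TRIM8 and 8.88 for ST3GAL1. The ranges of all 5 genes overlapped. The other peaks of the same chromosomes had median folds of 10.7 on chromosome 8 (753 peaks), 12.3 on chromosome 14 (607 peaks) and 12.3 on chromosome 10 (790 peaks).

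**Figure D3:**
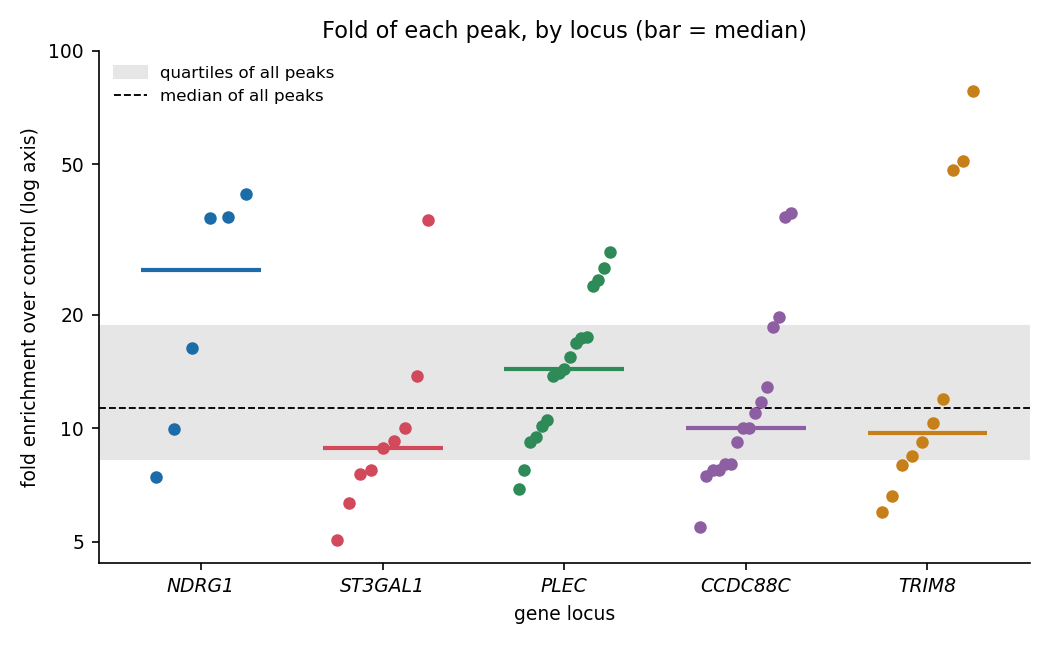
Fold enrichment of each peak (log axis) by gene, sorted within the gene, with a bar at the gene's median. The grey band spans the quartiles of all peaks, 8.31 to 18.7, and the dashed line is their median. Only TRIM8 has peaks at 50 or more, and ST3GAL1 has a single peak above 20.

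Summits lay close together at these genes. At PLEC all 17 summits had another within 10 kb, as had 15 of 16 at CCDC88C, 9 of 10 at TRIM8, 6 of 9 at ST3GAL1 and 5 of 6 at NDRG1. Over the 5 genes this was 52 of 58 (89.7%), against 40.8% of all peaks. Another summit within 1 kb was found for 25 of 58 (43.1%), against 13.3%. Both shares follow from the choice of crowded loci. The median distance between neighbouring summits was 1.15 kb at TRIM8, 1.54 kb at PLEC, 3.38 kb at CCDC88C, 6.59 kb at NDRG1 and 10.7 kb at ST3GAL1, against 48.2 kb in the list. Peaks of at least 500 bp numbered 11 of 58 (19.0%), against 8.85% of the list. There were 4 at CCDC88C, 3 at PLEC, 2 each at NDRG1 and TRIM8 and 0 at ST3GAL1. Whether the share of wide peaks goes with the choice of crowded loci was not tested.

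The control background under these peaks was at or near the lowest level the caller used. At 31 of 58 peaks (53.4%) the background was at its genome-wide value, 2.41 control reads in 142 bp, against 51.9% of all peaks. Fewer control reads than that would not show. The share was 12 of 16 at CCDC88C, 10 of 17 at PLEC, 4 of 9 at ST3GAL1, 4 of 10 at TRIM8 and 1 of 6 at NDRG1. The highest background was 5 reads per 142 bp, at 1 peak of ST3GAL1 and 1 of TRIM8. Equal folds recur where peaks have the same whole number of reads over the same background. The fold of 7.74 came from 26 reads over the genome-wide level at 1 peak of ST3GAL1, 1 of PLEC and 2 of CCDC88C.

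**Figure D4:**
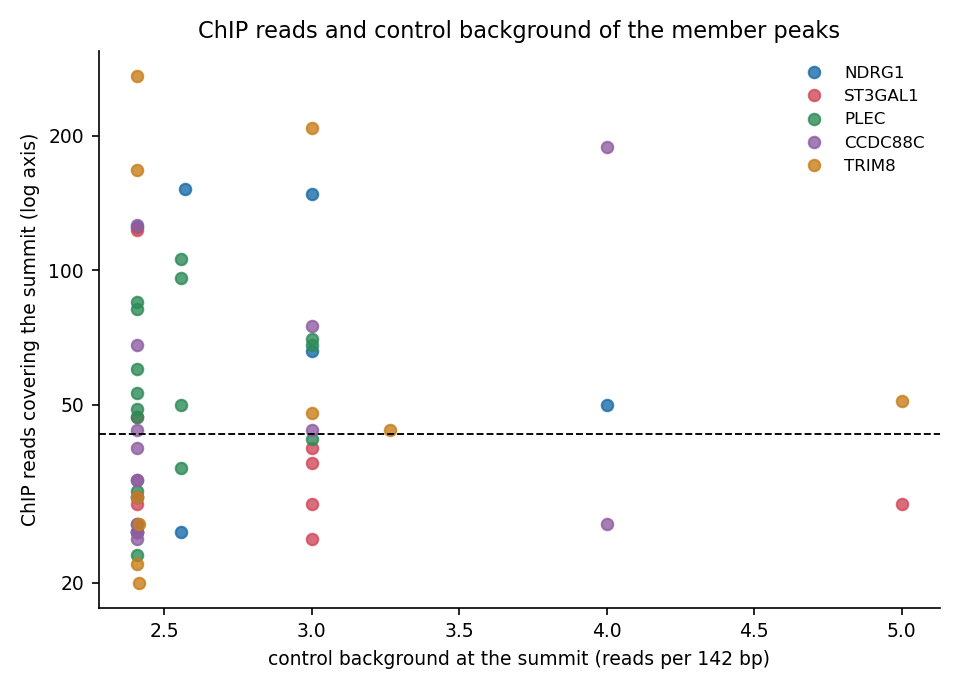
ChIP reads over each summit (log axis) against the control background there, in reads per 142 bp, for the 58 peaks coloured by gene. The dashed line is the median of 43 reads over all peaks. The column of points at 2.41 is the genome-wide level, and no peak has a background above 5.

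The flank of 20 kb set the counts of NDRG1 and TRIM8 in particular. With a flank of 10 kb NDRG1 had 3 peaks and TRIM8 7, and with none they had 1 and 4. At NDRG1 a peak at 134228917 to 134229063 with a fold of 7.74 reached into the window, but its summit lay 16 bp outside, and the last summit inside, by 753 bp, had a fold of 7.41. At CCDC88C a summit with a fold of 7.15 lay 402 bp outside, on the 3′ side. The nearest summits outside the other windows were 21.0 kb away at TRIM8 (fold 12.3), 33.1 kb at ST3GAL1 (fold 35.2) and 39.9 kb at PLEC (fold 13.2).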

How the data were processed

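The values come from the peak list of 1 ChIP library deposited by the authors. The hg19 build and the tools Bowtie2, SAMtools and MACS2 2.1.1.2016030 are named in the submitters' processing notes; their parameters were not stated there. The deposited list gives each peak's fold enrichment (a ratio), the −log10 of its p-value and q-value, and a score that is 10 times the −log10 p-value. These are the authors' values.

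Gene spans were taken to the nearest kb. Gene strands are background knowledge. The genes and the choice of peaks to name were made with earlier results of these data known. In each gene the peak of highest fold, the one nearest the 5′ end, the closest pair of summits and peaks with a fold of 50 or more were named, and others to account for every peak. ChIP reads and control background were solved from fold and p-value, with fold as (pileup + 1) / (background + 1) and p as the Poisson tail above the whole part of the pileup. With 1 ChIP read worth 0.975 units of pileup, 100% of 8987 peaks not used to fit that step gave whole reads within 0.01. All 58 peaks had 1 solution. The 142 bp over which control reads are given is the smallest peak width in the list. It was taken as the caller's fragment length, which the submitters' notes do not state. On 1999 simulated peaks the solver recovered the reads of 99.9%; this checks the solving, not the formulas. The depth of the libraries is not in the files; intervals cover counting error only.

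Sequences and neighbouring genes are from RefSeq, GRCh38.p14, and 1 of the 5 genes had a promoter entry. The work used Python 3.11.15 with scipy 1.17.1, pandas 2.3.3, numpy 2.4.6 and matplotlib 3.10.9.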

Additional observations from a re-analysis of the deposited data

How the results depend on the processing

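Counts per gene were recomputed under other limits of the list, other flanks, any overlap of the peak, and merging of peaks closer than 500 bp. Median fold and reads were recomputed with a −log10 q-value of at least 10, no flank and a flank of 50 kb, and position and spacing with a fold of at least 10 and with merging. Of 90 such values, 81 stayed within 1.5 times the value given above or, for the share of summits in the gene, within its exact 95% binomial interval, and 9 did not. With no flank NDRG1 had 1 peak and TRIM8 4, and with a flank of 10 kb NDRG1 had 3. With a fold of at least 10, ST3GAL1 had 3 peaks, CCDC88C 9 and TRIM8 5, and the median distance between summits became 52.4 kb at ST3GAL1, 10.1 kb at CCDC88C and 2.83 kb at TRIM8; fewer peaks are left to measure from. Merging left 4 peaks at NDRG1, 9 at ST3GAL1, 13 at PLEC, 14 at CCDC88C and 8 at TRIM8. A single ChIP library allows no leave-one-out value. No paired analysis was possible because there is 1 ChIP library and 1 control. Peaks here rest on 20 to 272 reads, and sites below the caller's limit were not analysed here.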
